A study of Homo sapiens with 8 samples.

Results

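Nuclear-encoded oxidative phosphorylation mRNAs were followed in HEK293 cells, an established human embryonic kidney line, across binding by 2 RNA cytosine methyltransferases and across bisulfite sequencing. The members were all nuclear protein-coding genes whose symbols start with NDUF, UQCR, ATP5 or COX and a digit, together with SDHA, SDHB, SDHC and SDHD. The rule used names only and found 107 of 20144 nuclear protein-coding genes. Grouped by symbol, 37 were placed with complex I, 4 with complex II, 9 with complex III, 19 with complex IV and 19 with complex V. Complex V took every symbol that starts with ATP5, so not every gene in a group need be a subunit. Another 8 were assembly factors of complex I and 9 of complex IV, and 2 were readthrough genes (ATP5MF-PTCD1 and NDUFC2-KCTD14), for which only exons of their own were counted.

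The respiratory chain passes electrons from complexes I and II through complex III to complex IV, and complex V, the ATP synthase, uses the proton gradient that results. Most of its subunits are translated in the cytosol from nuclear mRNAs and imported, while 13 come from mRNAs of mitochondrial DNA. NSun3 acts in mitochondria on a mitochondrial tRNA, and NSun6 is known for tRNA and for mRNA sites that open with CTCCA. Both make 5-methylcytosine.

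Of the 8 samples, 6 were miCLIP libraries. In 3 replicates cells had been transfected with myc-tagged NSun3 and in 3 with myc-tagged NSun6, harvested 24 hours later, and precipitated with the same anti-myc antibody. In miCLIP an enzyme altered in its active site stays joined to its target cytosine, and reverse transcription stops beside it, so each read marks a stop position. The enzymes were overexpressed, no untransfected library entered the comparison, and the labels do not say whether replicates were separate cultures, so p-values measure only the spread between these libraries. The other 2 samples were bisulfite sequencing of poly(A) RNA, in which 5-methylcytosine resists conversion, and their labels name no transfection. Their reads were given in 1 table with no split by sample, so bisulfite values have no replicate error.

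The NSun3 libraries held 47352 to 138921 reads and the NSun6 libraries 305392 to 467586, so that 1 read was worth 7.20 to 21.1 RPM (the count scaled to the library total) with NSun3 and 2.14 to 3.27 RPM with NSun6. A count of 0 allows up to 47.2 RPM as a mean over the NSun3 libraries (3 counts per library) and 8.50 RPM over the NSun6 libraries. These limits and the intervals below cover counting error only. Reads from NSUN6 itself numbered 323, 428 and 323 in the NSun6 libraries and 0 in each NSun3 library. Reads from NSUN3 numbered 32, 19 and 0 in the NSun3 libraries, so the library labelled NSun3 replicate 3 had none, and 0, 0 and 8 in the NSun6 libraries. In the bisulfite table the line's own markers were covered (VIM 5983 reads per cytosine, KRT18 535, KRT8 457, NEFM 260, LIN28B 88.1), PAX2 was low at 4.98, and of the markers of other tissues PTPRC, HBB, CD3E and INS were at 0, ALB at 0.438 and GFAP at 2.70.

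The cytosines bound by NSun6 are shown first, since most of the results turn on them. Sites were called high-confidence, at the threshold of the study's methods, where 2 or more of the 3 replicates exceeded 50 RPM at a cytosine, each read going to the closest one within 2 nt. In a tie the cytosine on the 5′ side took the read. NSun6 had 9 such sites, in 9 members (9.09% of those with a bisulfite-covered cytosine, against 7.82% of all such genes). NSun3 had 0, and only 2 in exons of all nuclear protein-coding genes. For 8 of them a line gives 10 bases on either side of the bound cytosine, 5′ to 3′ on the strand of the mRNA and from the GRCh37 (hg19) reference, with capitals for the bound cytosine or, where it opens one, for the whole CTCCA.
NDUFS5, chr1:39500206-39500226, plus strand, 3′ UTR: gttctctgttCTCCActggaa
ATP5MC2, chr12:54059078-54059098, minus strand, 3′ UTR: aaggagccgtCTCCAcctccc
ATP5MG, chr11:118272356-118272376, plus strand, 5′ UTR: gcgacggactCTCCAttccag
UQCRC1, chr3:48641695-48641715, minus strand, coding exon 5: cagggcacacCtctagcccag
COX7A2, chr6:75947592-75947612, minus strand, 3′ UTR: tcattcagctCtctatggacc
NDUFB3, chr2:201950366-201950386, plus strand, 3′ UTR: tttcttaactCTCCAaaataa
NDUFA3, chr19:54610204-54610224, plus strand, 3′ UTR: ctgtgagcacCTCCActgaca
COX11, chr17:53042086-53042106, minus strand, coding exon 2: gcatgcaagtCTCCAgtggaa

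Of these 9 cytosines, 7 opened CTCCA, against 88.3% of the 1202 NSun6 sites in exons of all nuclear protein-coding genes. The other 2, in UQCRC1 and COX7A2, opened CTCTA, which differs from CTCCA in a single base. In both sequences a stop at the first T lies equally near the first and the next cytosine. The tie rule gave such reads to the first, so that these cytosines open the sequences rests partly on that rule. CTCTA opened 7.32% of the 1202 sites and 0.285% of the 21388 member cytosines with at least 20 bisulfite reads. This sequence was singled out after the sites were seen. At the looser threshold of over 20 RPM, 22 cytosines passed, of which 16 opened CTCCA and 4 opened CTCTA, the 2 more being in NDUFC2 and at a second place in UQCRC1. By position, 5 of the 9 sites lay in 3′ UTRs of the canonical transcript, 2 in coding sequence and 2 in 5′ UTRs. In the reference genome, the window of 41 nt around the UQCRC1 site had no near copy elsewhere, and those of the other sites shown had 1 to 5, of which 1 for NDUFS5 was identical over its whole length.

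The stops were narrow. Of the reads within 10 nt of the 9 cytosines, 68.5% stopped 1 nt to the 3′ side and 25.8% at the cytosine itself. The first share was 73.8%, 64.1% and 69.7% in NSun6 replicates 1, 2 and 3. At these sites a stop 1 nt to the 3′ side lies equally near the next cytosine, so this offset depends on the tie rule. At each of the 9 sites 1 nt was the most frequent stop over the 3 libraries together, but not in every library: in replicate 2 the cytosine itself led in NDUFS5, with 76 reads against 58, and in NDUFA3, with 20 against 14, and in replicate 3 NDUFA3 and NDUFB3 had ties.

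**Figure D1:**
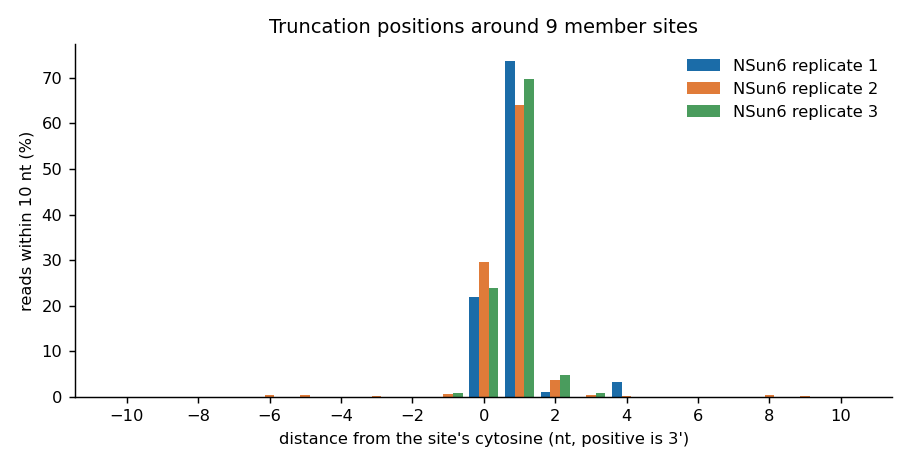
Stops of NSun6 reads around the 9 bound cytosines in the members, as percent of the reads within 10 nt (vertical axis) by distance in nt (horizontal axis, 0 is the cytosine), with 1 bar per library. The bars at 1 nt reach 64.1% to 73.8% and those at 0 reach 21.9% to 29.6%.

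In all, exons of the members held 779, 1301 and 805 reads in NSun6 replicates 1, 2 and 3, which is 2405, 2782 and 2636 RPM. They held 6, 0 and 0 in the NSun3 libraries. The 6 reads lay in NDUFA8 (3), UQCR11 (2) and NDUFB8 (1), all in replicate 1. As a share of all reads this was 0.261% ± 0.0190 (SD, n = 3) with NSun6. With NSun3 the share was 0.00432% in replicate 1 (exact Clopper-Pearson 95% interval 0.00159% to 0.00940%), and the counts of 0 in replicates 2 and 3 allow up to 0.00566% and 0.00634%. The groups did not overlap (two-sided exact permutation test, p = 0.1, the smallest that 3 against 3 allows). Reads in exons of all nuclear protein-coding genes also differed, with 153178 to 229543 in the NSun6 and 653 to 3125 in the NSun3 libraries. Of those reads the members took 0.529% ± 0.0363 (SD, n = 3) with NSun6 and 0.192%, 0 and 0 with NSun3. On this base the counts of 0 allow up to 0.446% and 0.459%, close to the NSun6 share. The mRNAs of the same pathway from mitochondrial DNA as a sum lay the other way, with 12.2% ± 2.74 (SD, n = 3) of reads in NSun3 and 3.03% ± 0.234 in NSun6 libraries, again without overlap (exact permutation p = 0.1). MT-ND3 and MT-ND4L were exceptions, with means of 14890 and 5572 RPM in NSun6 and 8084 and 1307 RPM in NSun3. Per read from those 13 mRNAs, the NSun6 libraries held 7.57% to 10.1% as many reads from the members, and the NSun3 libraries 0.0296%, 0 and 0.

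The reads were held by few members. Of 107, 69 had at least 1 NSun6 read, 24 had reads in all 3 NSun6 libraries, 17 in 2 and 28 in 1, and 38 had none. The 3 members with most reads held 38.5% of the members' RPM and the 12 with most held 74.8%. Complex V held 39.2% of it, complex I 31.3%, complex IV 11.4%, complex IV assembly 7.30%, complex III 7.29%, complex I assembly 2.22% and complex II 1.25%. Among members with a bisulfite-covered cytosine, 68.7% had an NSun6 read, against 75.8% of the 12889 such nuclear protein-coding genes, and the share with a high-confidence site was likewise near its background.

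NDUFS5, an accessory subunit of complex I, had the highest level, with 367, 334 and 442 RPM in NSun6 replicates 1, 2 and 3 (mean 381 ± 55.5, SD, n = 3) and 0 reads in every NSun3 library. Its bound 3′ UTR cytosine took 88.3% of its reads. Within complex I, NDUFB3 had 98.8, 72.7 and 68.8 RPM and NDUFA3 had 55.6, 81.3 and 55.7, both accessory subunits and both with a 3′ UTR site. NDUFS5 lay above the other two in every library. NDUFA11, NDUFA7 and NDUFC2 followed with means of 63.8, 59.6 and 51.7 RPM and no high-confidence site, and NDUFA7 ranged from 29.5 to 115 RPM between libraries.

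In complex V the rotor ring is made of subunit c, which 3 genes encode as the same mature protein. ATP5MC2 had 392, 394 and 291 RPM (mean 359 ± 58.5, SD, n = 3). ATP5MC3 had 86.4, 124 and 144 RPM. ATP5MC1 had 0, 5 and 1 reads, a mean of 4.66 RPM that lies under the 8.50 RPM a zero count allows. The 3 genes did not overlap in any library, in the order ATP5MC2, ATP5MC3, ATP5MC1. Bisulfite depth over all cytosines of the canonical transcript was 913, 161 and 520 reads per cytosine in that order of genes. The canonical transcript has 2587 nt in ATP5MC3 and 646 nt in ATP5MC1, and the part of this length in their order was not tested. At covered cytosines of all exons the 2 genes were closer, with 91174 reads at 237 cytosines in ATP5MC1 and 73903 at 238 in ATP5MC3. The exons of ATP5MC1 held 8 CTCCA, none with an NSun6 read.

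ATP5MG, subunit g of the membrane part, had 352, 284 and 154 RPM with 79.9% of its reads at its 5′ UTR site, and its intronless relative ATP5MGL had 0 reads. ATP5F1B, the catalytic beta subunit, had the most reads of any member without a high-confidence site (89.5, 107 and 88.4 RPM). Its best cytosine, the first of a CTCCA in coding exon 8, held 30.2% of them, with 0, 21 and 11 reads. ATP5F1C, the gamma subunit of the central stalk, had 77.2, 44.9 and 78.6 RPM.

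UQCRC1, a core subunit of complex III, had 142, 154 and 239 RPM, of which its coding site took 59.2%. COX7A2, a complex IV subunit, had 120, 167 and 232 RPM, 53.2% of it at the 3′ UTR site. The levels of these 2 genes overlapped. COX8A, another complex IV subunit, had 49.4, 57.7 and 85.1 RPM with 85.5% at a CTCCA in its 3′ UTR, and only replicate 3 exceeded 50 RPM at that cytosine. COX11, a copper chaperone needed to assemble complex IV, had 164, 118 and 39.3 RPM with a spread of 62.9 (SD), the widest relative to its mean among the 9 members with a site. In complex II, the flavoprotein SDHA had 21.6, 27.8 and 29.5 RPM, all of it at a single CTCCA in coding exon 9, although 54.4% of its 30-nt stretches were unique in the genome and 4 pseudogenes carry its name.

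Stop reads need not scale with transcript length, so the order above is by RPM per gene. Per kb of annotated exon, over all transcripts, the mean NSun6 level was highest for NDUFS5 at 695 RPM per kb. COX8A followed at 130, ATP5MC2 at 92.0, COX7A2 at 90.1 and UQCRC1 at 55.7. Such exons span 3904 nt in ATP5MC2 and 1922 nt in COX7A2, against 632 and 462 nt in their canonical transcripts. In COX8A both lengths are 494 nt, so the order after NDUFS5 depends on the length used.

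**Figure D2:**
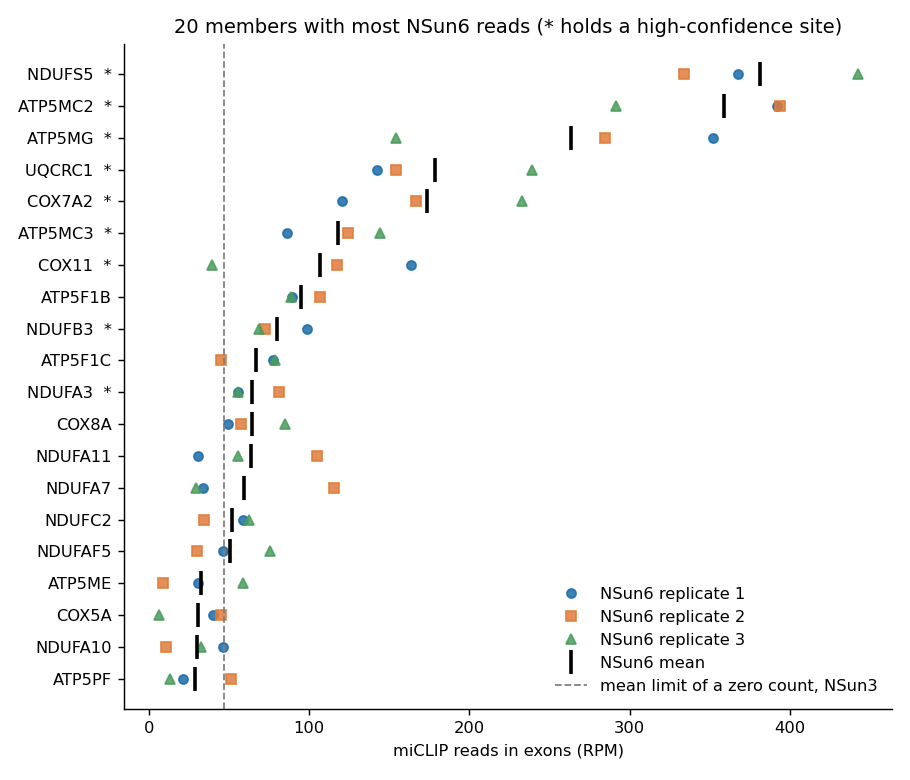
NSun6 miCLIP reads in exons (RPM, horizontal axis) for the 20 members with most reads, with 1 symbol per library, a bar at the mean, and a star at members with a high-confidence site. The dashed line is the 47.2 RPM that a mean zero count allows in the NSun3 libraries, and NDUFS5, at 334 to 442 RPM, lies farthest above it.

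The difference between enzymes was tested gene by gene over all genes with edgeR's quasi-likelihood test at a Benjamini-Hochberg adjusted p under 0.05. Of 1449 genes tested, 93.6% were called and 91.8% were called lower in NSun3. Of the 107 members 10 passed the filter on low counts, all through their NSun6 reads, and all 10 were called lower in NSun3 (ATP5F1B, ATP5MC2, ATP5MC3, ATP5MG, COX7A2, COX8A, NDUFA3, NDUFB3, NDUFS5 and UQCRC1). With a background of 91.8%, and a filter that such genes pass through NSun6 alone, this count says nothing particular about the members. The adjusted p of edgeR ran from 0.000313 for NDUFS5 to 0.00489 for COX8A. With the replicate number as a block in edgeR, 0 of the 10 were called, as the closing section gives. All 10 had 0 reads in all NSun3 libraries, so the sizes are bounds, the NSun6 mean against the 47.2 RPM limit. They leave out the spread between the NSun6 libraries. By the NSun6 mean, NDUFS5 was at least 8.08-fold lower in NSun3, ATP5MC2 at least 7.61-fold, ATP5MG at least 5.58-fold, UQCRC1 at least 3.78-fold and COX7A2 at least 3.67-fold. Over the 16 members whose NSun6 mean exceeded the limit and that had no NSun3 read, the bounds ran from 1.07 to 8.08. For the rest of the members no fold can be given at this depth.

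Introns of the members held 35, 53 and 37 reads in the NSun6 libraries and 5, 1 and 4 in the NSun3 libraries. The other strand of their exons added 5, 14 and 3 reads with NSun6 and 1, 0 and 0 with NSun3. Both were small beside the exon reads of the NSun6 libraries.

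Bisulfite depth, the mean reads over all cytosines of the canonical transcript, and NSun6 reads were only loosely related. A long transcript that is covered in part has a lower depth by this measure. Spearman's rho over 101 members was 0.204, given as a description since all points share the same libraries. UQCRH, the hinge subunit of complex III, was the most deeply covered member at 5153 reads per cytosine and had 0 NSun6 reads, which allows up to 8.50 RPM. ATP5F1B had 3678, NDUFB9 3601, COX8A 3149 and NDUFB11 2669. NDUFB9 and NDUFB11, both accessory subunits of complex I, had only 5 NSun6 reads each. Of the 38 members without an NSun6 read, 20 had a mean depth over 100. The miCLIP reads had to map to a single place, which bears on genes with processed copies. In UQCRH 67.7% of 30-nt stretches were unique in the genome, and 4 pseudogenes carry its name. The median unique share was 88.8% among members without reads and 91.7% among those with reads, and rho between that share and NSun6 RPM was 0.00885 over 107 members. Its part in single genes was not tested. NDUFB6 has no canonical transcript in the annotation used and so no depth value.

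The number of CTCCA in exons was also only loosely related to NSun6 RPM (rho 0.246 over 107 members). Member exons held 547 CTCCA in 101 members, and 52 of them (9.51%) had an NSun6 read. Among CTCCA whose first cytosine had at least 20 bisulfite reads, 26.2% of 126 had one in the members and 22.7% of 35389 in all nuclear protein-coding genes. For other cytosines these shares were 0.705% and 0.448%. Stops at the T of CTCCA go to its first cytosine under the tie rule, which may bear on these shares.

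**Figure D3:**
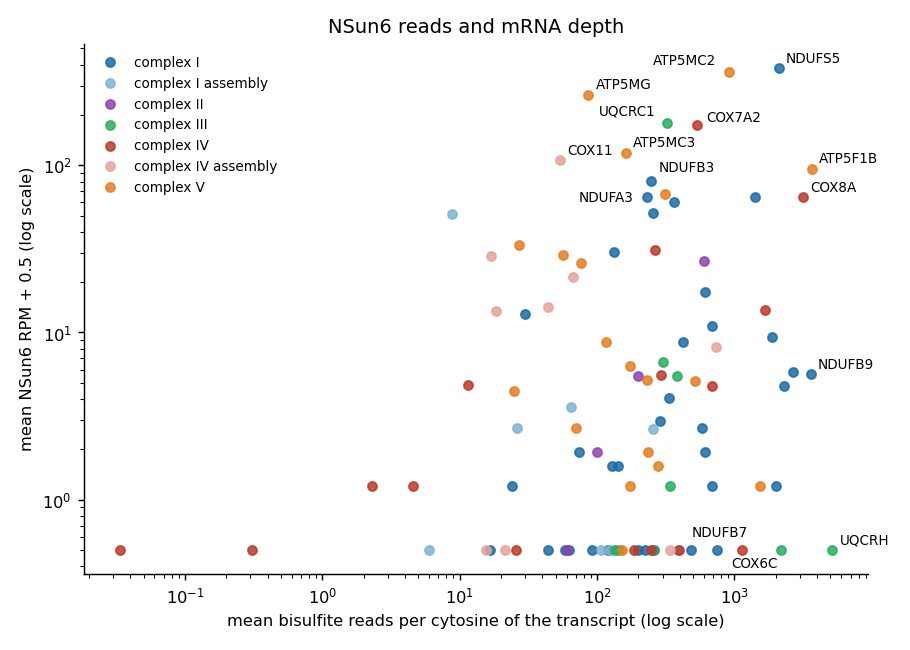
Mean NSun6 RPM plus 0.5 (vertical axis, log scale) by mean bisulfite reads per cytosine of the canonical transcript (horizontal axis, log scale) for the 101 members with a depth above 0, coloured by complex. UQCRH, the deepest at 5153 reads, sits on the bottom line at 0 RPM, while ATP5MG, at 86.6 reads, reaches 263 RPM.

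Whether the bound cytosines were methylated was asked in the bisulfite reads. Of the 9 sites, 7 had at least 20 reads, and 0 of them passed the call threshold of 20%, against a background of 2.57% of 778 covered NSun6 sites. In UQCRC1 60 of 820 reads were unconverted, a level of 7.32% (exact Clopper-Pearson 95% interval 5.63% to 9.32%). The 8 other covered cytosines within 10 nt had 0.235% at most. The UQCRC1 site was alone in this among the 7.

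COX7A2 had 3 of 2124 reads (0.141%) against 0.0392% at its neighbours, and NDUFA3 had 1 of 1777 (0.0563%) against 0.0653%. ATP5MC2 had 0 of 521 reads, with an exact interval that reaches 0.706%, and NDUFS5 0 of 238, with one that reaches 1.54%. ATP5MG with 0 of 31 and COX11 with 0 of 21 were too shallow for a low level to show, since their exact intervals reach 11.2% and 16.1%. NDUFB3 had 7 reads. With reads pooled, the 7 sites had 1.16% (exact interval 0.892% to 1.47%), with 60 of the unconverted reads from UQCRC1, against 1.56% over the 778 sites.

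**Figure D4:**
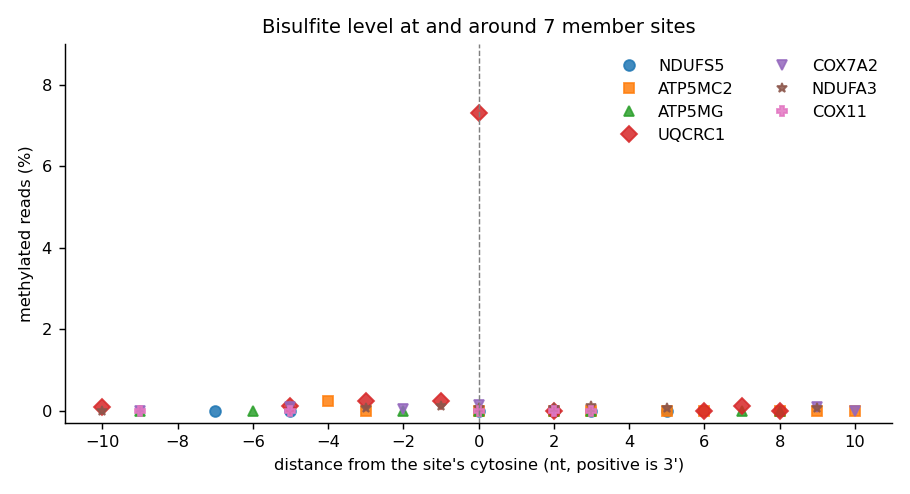
Bisulfite level (percent of reads unconverted, vertical axis) at the bound cytosine (distance 0) and at covered cytosines within 10 nt (horizontal axis, nt) for the 7 member sites with at least 20 reads. The UQCRC1 cytosine stands at 7.32%, and every other point plotted is below 0.3%.

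The weaker NSun6 positions, over 20 RPM in at least 2 replicates, are given here in part, and SDHA was not the highest of them. The SDHA cytosine in coding exon 9, at chr5:235309 and opening CTCCA, had 18 of 2833 reads (0.635%, exact interval 0.377% to 1.00%) where its 9 neighbours reached 0.0706% at most. At the CTCCA of COX8A 7 of 9738 reads (0.0719%) were unconverted, below the 0.0822% of its highest neighbour, and at that of ATP5F1B 5 of 4323 (0.116%), where the highest neighbour had 0.0925%. ATP5F1C had 1 of 81 reads (1.23%, exact interval 0.0313% to 6.69%), and COX5A 0 of 84 with a neighbour at 7.32%. These levels were compared with few neighbours and without replicates, so no test is given. Near copies of the SDHA window were not counted, and only 54.4% of 30-nt stretches of SDHA were unique in the genome. The SDHA window is shown with the CTCCA in capitals.
SDHA, chr5:235299-235319, plus strand, coding exon 9: caccacctacCTCCAgagcag

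Across their exons, the members had 21388 cytosines with at least 20 reads, in 99 genes. The 8 without one were the readthrough genes and COX4I2, COX6A2, COX6B2, COX7A1, COX7B2 and COX8C, which are known as tissue-specific forms of complex IV subunits. Of all reads at these cytosines 0.0876% were unconverted (exact interval 0.0860% to 0.0893%), against 0.130% in exons of all nuclear protein-coding genes. The median gene was at 0.0565% among 97 members with at least 2000 reads and at 0.0688% among 11846 genes. The lowest were NDUFA4 (0 of 4785 reads), the assembly factor NDUFAF5 (1 of 7079), NDUFB3 (4 of 20414), the membrane anchor SDHD (3 of 15171) and NDUFA12 (5 of 22361). The highest were COX18 at 3.57% (682 of 19125 reads), NDUFAF8 at 1.44% (593 of 41256) and COX20 at 1.08% (88 of 8130). COX16 at 0.838% (38 of 4536) and NDUFV3 at 0.621% (615 of 98956) followed. COX18, COX20 and COX16 are complex IV assembly factors, and the other factors of that group ran from 0.0321% to 0.429%.

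A level of at least 20% was reached by 85 member cytosines, 0.397% of those covered, against a background of 0.156%. They lay in 9 genes, 9.09% of the members with a covered cytosine against 10.4% of all such genes. COX18, which inserts a mitochondrially made complex IV subunit into the inner membrane, held 32, NDUFV3 16, NDUFA3 and NDUFS1 8 each, NDUFAF8 and NDUFB1 7 each, and NDUFB7 and NDUFS7 1 each. Without COX18 the share was 0.252%. The groups of complexes II, III, IV and V, assembly factors aside, had 0. Of the 85, 62 had under 50 reads and 8 had over 100.

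The calls came in runs. A total of 79 lay in 15 clusters, with another call within 10 nt, and 6 (0.0281%) stood alone, against 0.0143% of the cytosines of all nuclear protein-coding genes. Windows of 41 nt around the cluster centres and the lone calls were aligned to the nuclear genome, counting other places with at least 85% identity over at least 36 nt. In 14 of 15 cluster windows and 4 of 6 windows of lone calls there were over 1000 such places, from 8586 to 701552, so 76 of the 85 calls lay in repeat-like sequence. These included all the calls of COX18, NDUFV3, NDUFA3, NDUFS1 and NDUFB1. The part of read placement in these levels was not tested. The other 9 calls, in NDUFB7, NDUFS7 and NDUFAF8, had 0 near copies.

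**Figure D5:**
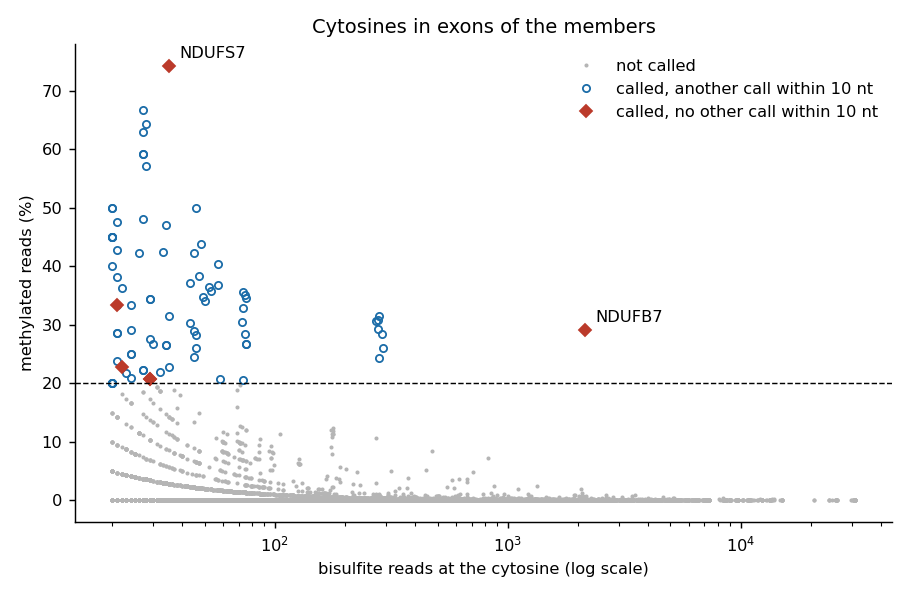
Bisulfite level (percent of reads unconverted, vertical axis) by number of reads (horizontal axis, log scale) for the 21388 covered cytosines in exons of the members, with the call threshold of 20% dashed. Calls with another call nearby (circles) lie mostly under 100 reads, while the lone call in NDUFB7 (diamond) has 2137 reads at 29.2%.

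NDUFB7, an accessory subunit of complex I on the side of the intermembrane space, held the deepest call. In its coding exon 2, 624 of 2137 reads were unconverted, a level of 29.2% (exact interval 27.3% to 31.2%). Its 4 covered neighbours within 10 nt had 0.0712% together. The cytosine was not in CTCCA or CTCTA, and NDUFB7 had 0 reads in all 6 miCLIP libraries. NDUFS7, which carries the last iron-sulfur cluster of complex I, had 26 of 35 reads unconverted (74.3%, exact interval 56.7% to 87.5%) at a cytosine outside its canonical transcript. NDUFAF8, an assembly factor of complex I, had 7 calls within 12 nt of its coding exon 2 at 24.4% to 31.4%, with 271 to 291 reads each and 3 NSun6 reads in the whole gene. The windows of NDUFB7 and of the highest NDUFAF8 cytosine are given with the cytosine in capitals.
NDUFB7, chr19:14677641-14677661, minus strand: tgctcaagtgCaagcgtgaca
NDUFAF8, chr17:79213396-79213416, plus strand: cctccacggcCccgggcggcc

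At 100 reads or more, where levels are better defined, 31 of 9457 member cytosines (0.328%) had a level of at least 5%, against 0.402% in all nuclear protein-coding genes. Of the 31, 9 had no other such cytosine within 10 nt. After NDUFB7 these were UQCRC2, the other core subunit of complex III, with 12 of 105 reads (11.4%), ATP5F1B with 29 of 273 (10.6%) and 16 of 315 (5.08%), ATP5MGL with 40 of 474 (8.44%), UQCRC1 at its NSun6 site, NDUFA11 with 11 of 191 (5.76%), NDUFAF1 with 11 of 202 (5.45%) and NDUFA3 with 23 of 447 (5.15%). Of these 9, the UQCRC1 cytosine was the only one with a high-confidence NSun6 site. The windows of ATP5MGL and NDUFA3 had 4 near copies each, and those of NDUFA11 and NDUFAF1 had 1 each. Those of NDUFB7, UQCRC2, UQCRC1 and ATP5F1B had 0. The part of read placement in these levels was not tested. COX15, the haem A synthase, had a run of 9 in its 3′ UTR at 8% to 12.4% and NDUFC2 a run of 6 at 6.25% to 7.09%, both in repeat-like windows. These thresholds were chosen after the data were seen.

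By region, calls made up 0.0829% of covered coding cytosines, 0 of 1293 in 5′ UTRs and 0.775% in 3′ UTRs of the members. The backgrounds were 0.0621%, 0.335% and 0.253%. In exons of other transcripts the share was 0.648% against 0.270%. Regions here were taken over all protein-coding transcripts, which gave 57 calls in 3′ UTRs, while canonical transcripts alone gave 56. Those 56 were all in the repeat-like windows, and 32 of them were in COX18. Such windows were not counted for the background. Pooled levels were 0.0679% in coding sequence, 0.0602% in 5′ UTRs and 0.176% in 3′ UTRs. The first cytosine of CTCCA had 0.166% over 126 positions and the other member cytosines 0.0872%, and in all genes these were 0.352% and 0.129%. Reads on the other strand of member exons numbered 9305, 0.0778% of those on the mRNA strand.

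A list of 55 other genes of the pathway, from cytochrome c and carriers to assembly factors and regulators, gave the surroundings. Of them 40 had an NSun6 read and 3 an NSun3 read, where 75.8% of nuclear protein-coding genes with a covered cytosine had an NSun6 read. In the edgeR test 4 were tested, and 4 were called lower in NSun3 and 0 higher, beside 91.8% lower among all genes tested. All 4 had 0 reads in every NSun3 library and so passed the filter on low counts through NSun6 alone. These were CYCS, cytochrome c, with 824 RPM ± 282 (SD, n = 3) in NSun6, SLC25A4 with 771 ± 84.1 and SLC25A5 with 118 ± 15.1, both carriers of ADP and ATP, and ATPAF1, an assembly factor of complex V, with 168 ± 64.3. Each held 1 high-confidence NSun6 site. CYCS and SLC25A4 lay above every member. In bisulfite reads 47 of 17332 cytosines (0.271%) were called, against the background of 0.156%. They lay in 5 genes, where 10.4% of all nuclear protein-coding genes with a covered cytosine held a call. SCO1 alone held 22 of the 47 calls, and without it, a choice made after seeing the data, the share was 0.153%. In SCO1, a copper chaperone of complex IV, the highest lone call had 141 of 280 reads (50.4%), and LYRM7, an assembly factor of complex III, reached 38.1%.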

How the data were processed

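The members and gene lists were chosen with earlier results of these data known. For the miCLIP libraries PCR copies, recognised by random barcodes, and reads under 18 nt were dropped by the authors, the rest was aligned to hg19 with bowtie (1 mismatch, unique best hits), and counts per stop position were deposited, 1 file per library. For the bisulfite reads, aligned with Bismark, the authors deposited, for each cytosine, read counts for both states and the methylated percent, in 1 table. Whether reads of the 2 samples were pooled and PCR duplicates removed is not stated for it, so coverage counts reads.

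The strand of miCLIP positions was taken from the file's pass over the chromosomes, and that of bisulfite positions from the reference base (C or G at 76006950 of 76007404 nuclear positions). Genes and exons came from GENCODE 44 on GRCh37, counting exons of all transcripts on the gene's strand. Levels, RPM, exact Clopper-Pearson 95% intervals and limits of 3 counts were computed with numpy 2.4.6, pandas 2.3.3 and scipy 1.17.1. Genes were tested with edgeR 4.0.16 (R 4.3.3; TMM, filterByExpr, quasi-likelihood F test) and with DESeq2 1.42.0 as an alternative. Near copies were counted with BLAST 2.17.0. A covered cytosine had at least 20 reads.

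Members named were those with a high-confidence site, the 12 with most NSun6 RPM, the member with most reads and no site, those holding the 12 highest called cytosines, the 5 highest and 5 lowest pooled levels over at least 2000 reads, the 5 deepest, those with no covered cytosine, and listed pathway genes with a site or call. Others were chosen after their values were seen. A few items that this rule would name are not reported here.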

Additional observations from a re-analysis of the deposited data

How the results depend on the processing

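Of the member sites, 9 became 22 at over 20 RPM and 4 at over 100 RPM, and leaving out 1 NSun6 library each time gave 6 to 8. The members called lower in NSun3 were 10 of 10 tested. With no filter on low counts they were 24 of 71, where 3684 of 11975 genes in all were called lower. With the replicate number as a block in edgeR 0 of the 10 were called (10 at an unadjusted p under 0.05), where 2 of 1449 genes in all were called. For each gene, deviations of log2 RPM from the mean of the same enzyme's libraries were taken. Between same-numbered libraries of the 2 enzymes these deviations correlated at 0.0256 to 0.0618 over genes. Genes with 0 reads in all NSun3 libraries, as these 10 members had, lower that correlation, so it cannot show whether the numbers pair the libraries. Under the block the 10 members had adjusted p of 0.0511 to 0.0516. Leaving out 1 library gave 7 to 16 members called. They were 7 of 7 tested without NSun6 replicate 1, where 1069 of 1197 genes in all were called lower. Without NSun3 replicate 1 they were 16 of 18, beside 2436 of 2627 genes. Without NSun3 replicate 3 they were 16 of 18, beside 2100 of 2646 genes. In the 13 other settings these same 10 members, where they passed the filter, stayed called and lower in NSun3 (122 results of a member in a setting). With 0 exon reads in every NSun3 library their direction was fixed beforehand, so this is no separate support. COX8A and NDUFA3 passed in 10, failing whenever an NSun6 library was left out, and NDUFB3 in 11, failing without NSun6 replicate 1 or 2.

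The NSun6 share of 0.261% was 0.286% of nuclear reads, 0.529% of reads in protein-coding exons, 0.300% with each stop position counted once, and 0.252% to 0.271% with 1 library left out. The NSun3 share of 0.00144% was 0.0640% of reads in protein-coding exons, 0.0101% of positions, and 0 to 0.00216% with 1 library left out (0 without replicate 1).

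Called member cytosines numbered 200, 23 and 8 at coverage minimums of 6, 50 and 100 reads, 189 and 48 at levels of 10% and 30%, and 6 without calls near another. Leaving out repeat-like windows gave 9 and leaving out COX18 gave 53, both chosen after seeing the data. The pooled level of 0.0876% was 0.0941% and 0.0690% at minimums of 6 and 100 reads, 0.355% as a mean over cytosines and 0.0697% without called cytosines. At NSun6 sites it was 0.413% over sites above 20 RPM. The cause of these shifts was not tested. Low NSun3 depth limits the comparisons of the members between the enzymes.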
